A study of Mus musculus with 6 samples.

Results

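The genes described here are 46 genes of the presynaptic terminal: vesicle proteins, the membrane fusion machinery and the scaffold of the active zone. They were taken by gene symbol from a list of names, which was chosen with earlier results of these data known. All 46 were found among the 24421 symbols counted and passed the filter on low counts that left 14852 genes for testing. The RNA came from brain cortex of C57BL/6 mice that had undergone middle cerebral artery occlusion, in which blocking a brain artery produces an ischaemic stroke. The 3 control libraries (GFP_MCAO) came from animals treated with green fluorescent protein and the other 3 (NeuroD1_MCAO) from animals treated with NeuroD1, given intravenously per the series title. The strain and the arterial occlusion were thus common to all 6 libraries, and there was no group without a stroke among them. The sources used here do not give age, sex, time after the stroke, the vector or the promoter of the delivered gene. They also do not say whether the libraries are different mice, and the p-values therefore rest on differences among libraries that may be partly technical.

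NeuroD1 is a basic helix-loop-helix transcription factor that binds E-box sequences and drives neuronal differentiation. At a presynaptic terminal, synaptic vesicles filled with transmitter are docked at the active zone by scaffold proteins, primed by Unc13 proteins, and fused by SNARE proteins when synaptotagmins bind calcium. Their membrane is then retrieved by endocytosis. Most of these proteins are made almost only by neurons in the brain, so that in bulk tissue their messenger RNA also reflects how much neuronal RNA a sample holds.

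Libraries held 7753101 to 9698795 counts in the GFP group and 10843273 to 13440244 in the NeuroD1 group, so that 1 count was worth 0.0744 to 0.129 CPM (a count relative to its library's total, here scaled between libraries by the TMM method). Neurod1 itself was at 6.48, 3.87 and 5.43 CPM in GFP replicates 1, 2 and 3 and at 48.5, 14.6 and 38.4 CPM in the NeuroD1 replicates, so every NeuroD1 library was above every GFP library and replicate 2 was the lowest of its group. All 12 markers of excitatory cortical neurons passed the count filter, with a summed level of 4253 to 6467 CPM in the GFP and 2238 to 4846 CPM in the NeuroD1 libraries. Below, "unadjusted p" is the p of edgeR's quasi-likelihood test before correction over the 14852 genes.

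Few of the presynaptic genes differed between NeuroD1 and GFP cortex beyond the spread of the libraries. Of the 46, 1 was higher (2.17%) and 2 were lower at an unadjusted p under 0.05, namely the vesicle protein gene Sv2c upward and the priming factor gene Unc13b and the calcium sensor gene Syt7 downward. Among all tested genes 12.5% were higher and 11.5% lower by this criterion, 24.0% in all, against 6.52% of the presynaptic genes. After Benjamini-Hochberg adjustment over all genes edgeR called 0 members, and 0 (0%) of the 14852 genes. DESeq2, run as an alternative, called 2 of 46 members (4.35%) against 8.99% of the 15276 genes to which it gave an adjusted p. These were Sv2c, higher (adjusted p = 0.0424), and Unc13b, lower (adjusted p = 0.0135). The median log2 fold change of the members was 0.16, with a range of -1.25 to 1.99, beside a median of 0.02 over all tested genes. In bulk tissue, a lower value could come from fewer neurons or from less of the RNA in each, and these cannot be told apart.

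The summed level of the 46 genes was 15270, 10069 and 12371 CPM in GFP replicates 1, 2 and 3 and 14531, 6214 and 17465 CPM in NeuroD1 replicates 1, 2 and 3. The groups overlapped: NeuroD1 replicate 3 held the most presynaptic RNA of the 6 libraries and NeuroD1 replicate 2 the least. The mean of the sums was 12570 ± 2606 CPM in the GFP group and 12737 ± 5836 CPM in the NeuroD1 group (SD, n = 3 each). NeuroD1 replicate 2 was the lowest of its group in 46 of 46 members and the lowest of all 6 libraries in 36 of them (78.3%), while it was the lowest of the 6 in 22.4% of all tested genes. NeuroD1 replicate 3 was the highest of the 6 libraries in 19 members (41.3%, against 8.59% of all tested genes) and NeuroD1 replicate 1 in 14 (30.4%, against 17.5%). Within the GFP group, replicate 2 was the lowest library in 31 members.

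**Figure D1:**
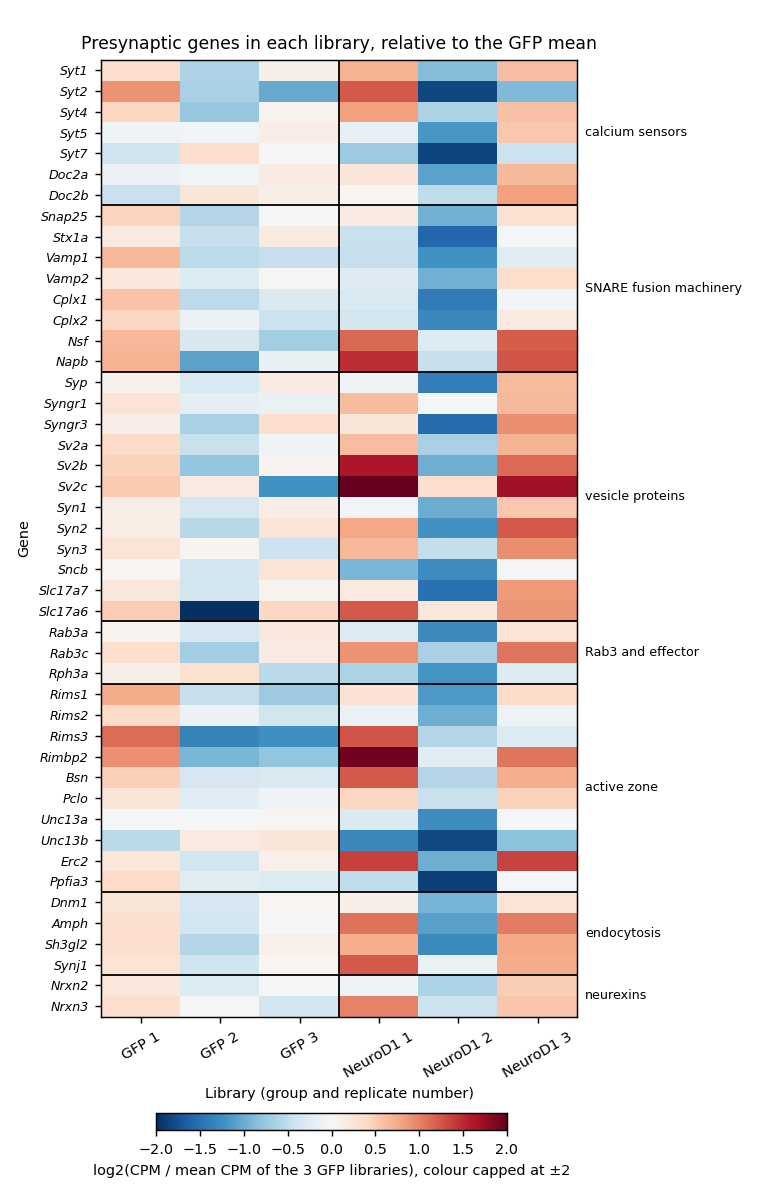
Each row is a presynaptic gene, grouped by role, and each column a library. Colour gives the log2 ratio of its CPM to the mean of the 3 GFP libraries, capped at 2 in either direction. NeuroD1 replicate 2 forms a low column, lowest of the 6 libraries in 36 of 46 genes, between NeuroD1 columns that are high for many vesicle, active zone and endocytosis genes.

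Other lists of genes moved with that library. The summed level of 20 pan-neuronal genes outside the synapse was 14464, 9365 and 10354 CPM in the GFP replicates and 8285, 4366 and 12901 CPM in the NeuroD1 replicates, again lowest in NeuroD1 replicate 2. In the same library the 12 microglia and myeloid markers reached 14788 CPM, against 4478 to 6574 CPM in the GFP libraries and 9947 and 6210 CPM in NeuroD1 replicates 1 and 3. The 8 fibroblast markers reached 7035 CPM there, against 1080 to 1883 CPM in the GFP libraries and 4209 and 1847 CPM in NeuroD1 replicates 1 and 3. All 12 myeloid and all 8 fibroblast markers passed the filter, 6 and 8 of them were higher with NeuroD1 at an unadjusted p under 0.05, and no marker of either list was at 0 in all libraries. The part of these cell types in the presynaptic values was not tested.

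**Figure D2:**
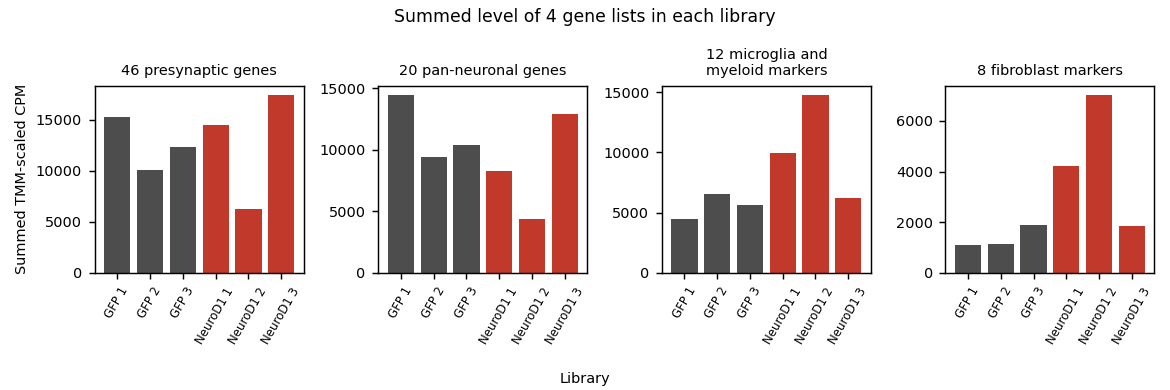
Bars give the summed TMM-scaled CPM of each list in each library, GFP in grey and NeuroD1 in red, from a zero baseline. NeuroD1 replicate 2 has the shortest bars for the presynaptic (6214 CPM) and pan-neuronal (4366 CPM) lists and the tallest for the myeloid (14788 CPM) and fibroblast (7035 CPM) lists.

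The ratio of presynaptic to pan-neuronal RNA separated the groups only with certain genes kept in the pan-neuronal list. The ratio of both sums was 1.06, 1.08 and 1.19 in the GFP replicates and 1.75, 1.42 and 1.35 in the NeuroD1 replicates, so the groups lay apart with all 20 genes in the denominator. They overlapped when either Kif5a or Snhg11 was left out of it, and stayed apart when any other of the 20 was. Kif5a, a kinesin motor gene that supplied 32.3% of the sum, was at 6262, 3630 and 2435 CPM with GFP and 2035, 924 and 4023 CPM with NeuroD1. Without it the ratio was 1.86, 1.76 and 1.56 against 2.32, 1.81 and 1.97. Snhg11, a long noncoding RNA gene, was at 1569, 1634 and 2273 CPM with GFP and 135, 544 and 802 CPM with NeuroD1, and without it the ratio was 1.18, 1.302 and 1.53 against 1.78, 1.63 and 1.44. Both genes were singled out after their values were seen. The median log2 fold change was -0.09 in the pan-neuronal genes and 0.16 in the presynaptic ones.

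Leaving out NeuroD1 replicate 2 changed the count of members more than any other omission of 1 library. Without it 16 of 46 members (34.8%) were higher at an unadjusted p under 0.05 and 1, Unc13b, was lower, beside 12.2% and 11.9% of the genes tested in that fit. After adjustment 0 members passed, and the smallest adjusted p of a member was 0.153. The median log2 fold change was then 0.51, beside -0.0023 over all genes. A rise follows from the choice of library, because NeuroD1 replicate 2 was the lowest of its group in all 46 members. Leaving out another library gave 0 to 5 higher (at most 10.9%) and 1 to 5 lower members (at most 10.9%), where 6.13% to 15.3% of all tested genes were higher and 5.41% to 13.8% lower, and the median was -0.23 without NeuroD1 replicate 3. The groups did not overlap in 3 of 46 members with all libraries, beside 29.6% of all tested genes, and in 24 (52.2%) without NeuroD1 replicate 2, beside 45.7%.

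**Figure D3:**
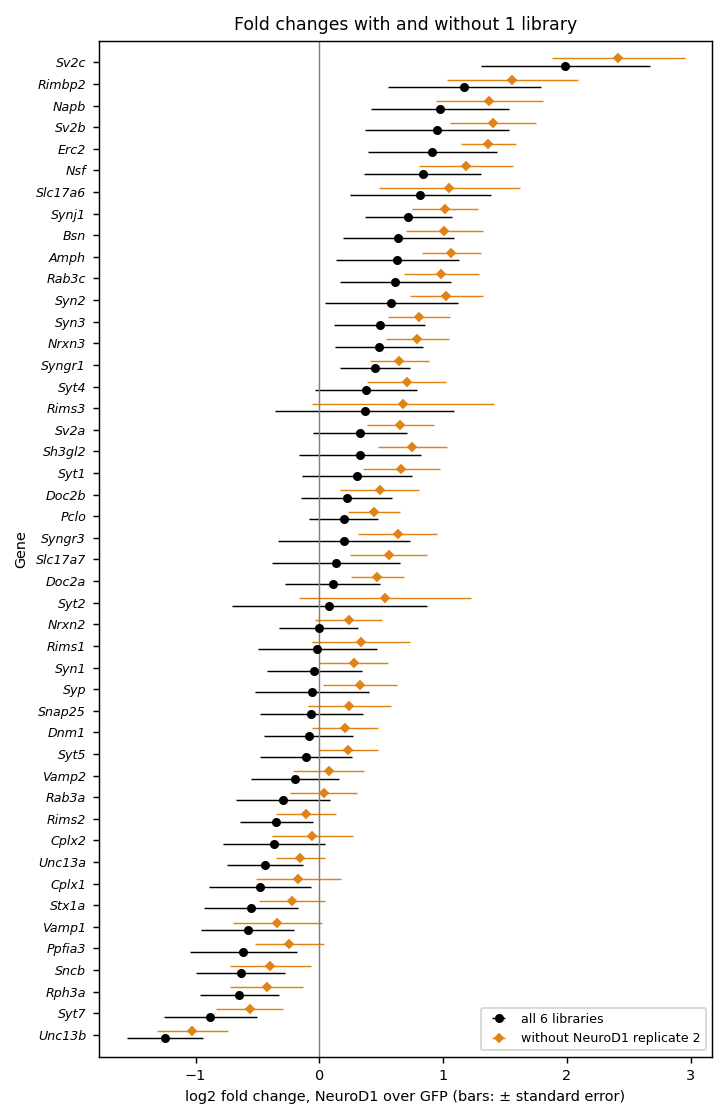
For each presynaptic gene the point gives the log2 fold change of NeuroD1 over GFP and the bar its standard error, in black with all 6 libraries and in orange without NeuroD1 replicate 2. The orange points lie to the right of the black ones for all 46 genes, which follows from that library being the lowest of its group in each. The median moves from 0.16 to 0.51, and Unc13b stays lowest and Sv2c highest in both fits.

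Vesicle proteins included the member with the largest fitted fold change. SV2 proteins are glycoproteins of the vesicle membrane that resemble transporters. Sv2a is the broadly expressed form and the target of the antiepileptic drug levetiracetam, while Sv2c is found mainly in the basal ganglia and other deep regions. Sv2c (chromosome 13, 95954594 to 96132577, minus strand, GRCm38) was counted 25, 15 and 7 times with GFP, and 174, 23 and 63 times with NeuroD1. On the CPM scale these were 2.53, 2.004 and 0.761 against 13.1, 2.23 and 5.66. NeuroD1 replicates 1 and 3 lay above every GFP library, while replicate 2 lay within the GFP range. The log2 difference was 1.99 (SE 0.68), or 3.97-fold, with an unadjusted edgeR p of 0.0185 and an adjusted p of 0.155. It was 1.161 on the log2 scale without NeuroD1 replicate 1, where the unadjusted p was 0.102, and 1.62 without GFP replicate 3, where it was 0.0596. The 9 striatum markers summed to 150.0 to 203.5 CPM with GFP and to 173.7, 105.4 and 338.0 CPM in the NeuroD1 replicates. Their part in the Sv2c value was not tested.

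Sv2b, common in forebrain excitatory neurons, was at 184, 78.3 and 138 CPM in the GFP replicates and 411, 68.1 and 293 CPM in the NeuroD1 replicates. NeuroD1 replicate 2 was the lowest of all 6 libraries and NeuroD1 replicates 1 and 3 were the highest. The fold change was 1.93 (edgeR adjusted p = 0.336), or 2.65 without NeuroD1 replicate 2 (adjusted p = 0.153). On the log2 scale it was 0.95 with all libraries and 0.44 without NeuroD1 replicate 1. Sv2a was at 270, 152 and 197 CPM against 316, 132 and 331 CPM, a 1.26-fold difference (edgeR adjusted p = 0.601). Per kilobase of transcript, Sv2a was the most abundant Sv2 gene with GFP (47.6 ± 13.8 CPM per kb), followed by Sv2b (24.1 ± 9.57) and Sv2c (0.194 ± 0.0999; SD, n = 3). The order of the means was the same with NeuroD1, where Sv2a was at 59.9 ± 25.6, Sv2b at 46.6 ± 31.6 and Sv2c at 0.769 ± 0.611 CPM per kb. Within libraries, Sv2b per Sv2a (per kilobase) was 0.534, 0.405 and 0.550 in the GFP replicates. It was 1.02, 0.406 and 0.695 in the NeuroD1 replicates, so Sv2b was slightly above Sv2a in NeuroD1 replicate 1.

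**Figure D4:**
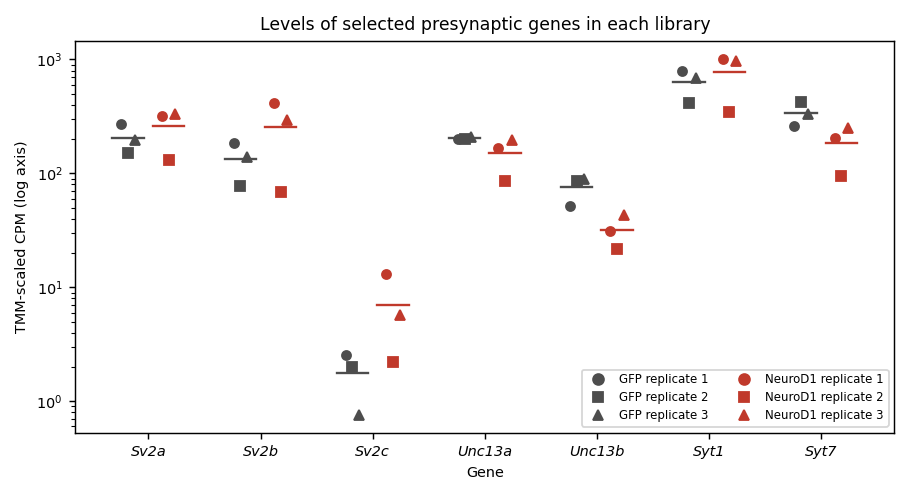
Points give the TMM-scaled CPM of each library on a log axis, GFP in grey and NeuroD1 in red, with a shape for each replicate number and a line at the group mean. The 3 NeuroD1 values of Unc13b (21.6 to 42.9 CPM) lie below the 3 GFP values (51.9 to 89.1 CPM). For Sv2a, Sv2b and Syt1 the NeuroD1 squares, replicate 2, lie lowest of the 6.

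The sequences just upstream of the start sites of these related genes are shown because the 3 genes had the same kind of product and unlike values. Each line holds the 250 bases before the RefSeq start on build GRCm38.p6, read 5′ to 3′ on the gene's strand, with every E-box (CANNTG, the same on both strands) in capitals. Sv2a is chr3:96180977-96181226, plus strand. Sv2b is chr7:75309263-75309512, minus strand, the most upstream of its 4 RefSeq starts. Sv2c is chr13:96132578-96132827, minus strand.
Sv2a: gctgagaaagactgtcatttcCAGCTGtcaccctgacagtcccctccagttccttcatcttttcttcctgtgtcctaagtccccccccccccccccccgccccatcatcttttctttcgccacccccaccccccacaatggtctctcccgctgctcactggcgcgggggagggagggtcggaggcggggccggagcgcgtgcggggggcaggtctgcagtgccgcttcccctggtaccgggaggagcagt
Sv2b: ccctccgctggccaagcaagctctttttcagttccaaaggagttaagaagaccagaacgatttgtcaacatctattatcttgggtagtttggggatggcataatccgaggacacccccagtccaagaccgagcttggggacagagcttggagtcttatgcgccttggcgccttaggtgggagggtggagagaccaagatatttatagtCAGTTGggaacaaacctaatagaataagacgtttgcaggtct
Sv2c: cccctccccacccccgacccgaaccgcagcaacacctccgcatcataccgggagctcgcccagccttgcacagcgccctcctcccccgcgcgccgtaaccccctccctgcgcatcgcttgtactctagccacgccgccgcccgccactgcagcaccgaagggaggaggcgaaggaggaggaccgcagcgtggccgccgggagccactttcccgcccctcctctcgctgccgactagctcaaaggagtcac
The Sv2a and Sv2b windows held 1 E-box each (CAGCTG and CAGTTG), and that of Sv2c, the member with the highest fold change, held 0. The Sv2b window was 48.8% G and C, against 66.0% for Sv2a and 70.8% for Sv2c.

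Among the glutamate transporters that fill vesicles, Slc17a7 (VGLUT1), the main cortical form, was at 1218, 804 and 1086 CPM in the GFP replicates and 1181, 369 and 1862 CPM in the NeuroD1 replicates. The NeuroD1 libraries spanned both the lowest and the highest value, and the fold change was 1.098 (edgeR adjusted p = 0.891). Slc17a6 (VGLUT2), the form of thalamic and other subcortical inputs, was scarce, with 71, 9 and 62 counts with GFP and 156, 60 and 104 with NeuroD1. GFP replicate 2 was the lowest library, the groups overlapped, and the difference was 1.76-fold (edgeR adjusted p = 0.388). The 8 thalamus markers summed to 253 to 273 CPM with GFP and 271, 401 and 216 CPM in the NeuroD1 replicates. Prkcd alone supplied 31.1% of that sum. The part of thalamic tissue in the Slc17a6 value was not tested.

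Synapsins tether vesicles to each other and to actin. Syn1, the most abundant of them per kilobase, was at 557, 399 and 561 CPM with GFP and 488, 253 and 732 CPM with NeuroD1, with overlapping groups and a fold change of 0.972. Syn2 was at 256, 157 and 280 CPM with GFP and 394, 99.9 and 542 CPM with NeuroD1. Without NeuroD1 replicate 2 the fold change of Syn2 was 2.03 (edgeR adjusted p = 0.153), against 1.496 (adjusted p = 0.511) with it. On the log2 scale it was 0.58 with all libraries and 0.10 without NeuroD1 replicate 3. Syn3 was at 23.6, 20.3 and 14.6 CPM against 30.8, 14.03 and 37.0 CPM, but 1733 of its annotated exon bases are shared with Timp3 on the opposite strand. Timp3 averaged 187 ± 44.3 CPM in the GFP group and 202 ± 26.4 CPM in the NeuroD1 group (SD, n = 3), far above Syn3, and without a stated strand setting the reads of both genes in that stretch cannot be told apart.

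The remaining vesicle proteins showed overlapping groups. Syp, synaptophysin, the classical vesicle marker, was at 803, 612 and 846 CPM with GFP and 717, 289 and 1165 CPM with NeuroD1. Syngr1, of the related synaptogyrin family, was at 444, 323 and 336 CPM with GFP and 567, 358 and 578 CPM with NeuroD1. For Syngr1, NeuroD1 replicate 2 lay within the GFP range and the other NeuroD1 libraries above it, a 1.36-fold difference (edgeR adjusted p = 0.343). Sncb, β-synuclein, a soluble protein that associates with vesicles, was at 559, 421 and 653 CPM with GFP and 290, 227 and 534 CPM with NeuroD1. NeuroD1 replicates 1 and 2 lay below every GFP library and replicate 3 within their range, a 1.55-fold lower level (edgeR adjusted p = 0.302). Sncb nevertheless had the highest mean per kilobase of the members with GFP (403 ± 86.3 CPM per kb, SD, n = 3). It was ahead of Vamp2 (356 ± 58.3) and Slc17a7 (336 ± 68.6). These SDs include swings that the genes share across libraries, and the genes were not compared within each library.

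Of the 8 genes of the fusion machinery 0 passed the unadjusted criterion, 6 had lower fitted levels, and the recycling factors Nsf and Napb had higher ones. Snap25, a SNARE of the plasma membrane, was at 1816, 895 and 1310 CPM with GFP and 1501, 686 and 1658 CPM with NeuroD1, a fold change of 0.956 (edgeR adjusted p = 0.936). Vamp2, the vesicle SNARE, was at 904, 648 and 801 CPM with GFP and 653, 405 and 996 CPM with NeuroD1. Stx1a, the syntaxin that pairs with Snap25, was at 247, 159 and 247 CPM with GFP and 159, 73.3 and 213 CPM with NeuroD1, 1.47-fold lower with overlapping groups. Complexins clamp the assembled SNARE complex, and Cplx1 (1.40-fold lower) and Cplx2 (1.29-fold lower) also overlapped between the groups, with edgeR adjusted p-values of 0.479 and 0.590.

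Nsf, the ATPase that takes SNARE complexes apart after fusion, was at 412, 209 and 162 CPM in the GFP replicates and 576, 216 and 606 CPM in the NeuroD1 replicates. Napb, its neuronal adaptor β-SNAP, was at 217, 63.7 and 121 CPM with GFP and 372, 97.3 and 320 CPM with NeuroD1. In both genes NeuroD1 replicates 1 and 3 were above all GFP libraries and replicate 2 was within the GFP range. The fold changes were 1.78 for Nsf and 1.96 for Napb (edgeR adjusted p-values of 0.302 and 0.306), and 2.27 and 2.59 without NeuroD1 replicate 2 (0.159 and 0.158). With any 1 library left out, the log2 fold change lay between 0.59 and 1.315 for Nsf and between 0.64 and 1.496 for Napb.

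Active zone genes held the member with the smallest p. Unc13 (Munc13) proteins prime docked vesicles for release. Unc13b (chromosome 4, 43058953 to 43264871, plus strand, GRCm38) was at 51.9, 85.6 and 89.1 CPM in the GFP replicates and 30.9, 21.6 and 42.9 CPM in the NeuroD1 replicates, so that every NeuroD1 library lay below every GFP library. Its log2 difference was -1.25 (SE 0.31), 2.37-fold lower, with an unadjusted edgeR p of 0.00344 and an adjusted p of 0.136. With any 1 library left out the log2 fold change lay between -1.51 and -1.03 and the unadjusted p between 0.00174 and 0.0151. With offsets for transcript length and base composition the log2 fold change was -1.63. Unc13a, the main isoform of cortical glutamatergic synapses, was at 202, 202 and 210 CPM with GFP and 168, 85.9 and 198 CPM with NeuroD1. Its groups did not overlap on this scale but did on CPM without TMM scaling, where GFP replicate 2 was at 194.9 and NeuroD1 replicate 3 at 203.9, and the difference was 1.36-fold (edgeR adjusted p = 0.389). Unc13a shares 495 annotated exon bases with Colgalt1 on the opposite strand.

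Endothelial and oligodendrocyte markers were also lower with NeuroD1, as Unc13b was. At an unadjusted p under 0.05, 8 of 10 and 5 of 10 of them were lower, beside 11.5% of all tested genes. Lower by this criterion too were 3 of 4 tested choroid plexus and 2 of 10 astrocyte markers, with 0 of either higher. The 10 endothelial markers summed to 628 to 943 CPM with GFP and 243 to 505 CPM with NeuroD1, and the 10 oligodendrocyte markers to 11348 to 21540 CPM and 7391 to 9868 CPM. None of these 20 markers was at 0 in all libraries. Whether such cells contribute to the level of Unc13b was not tested.

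The upstream windows of the Unc13 pair are shown because the paired genes encode the same kind of priming factor and differed in their values. They are built and marked as those of the Sv2 genes. Unc13a is chr8:71671758-71672007, minus strand. Unc13b is chr4:43058703-43058952, plus strand.
Unc13a: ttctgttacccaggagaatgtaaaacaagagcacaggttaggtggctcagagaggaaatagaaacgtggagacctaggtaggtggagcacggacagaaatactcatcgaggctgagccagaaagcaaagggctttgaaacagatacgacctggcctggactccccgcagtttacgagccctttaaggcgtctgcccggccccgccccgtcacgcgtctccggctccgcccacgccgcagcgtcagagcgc
Unc13b: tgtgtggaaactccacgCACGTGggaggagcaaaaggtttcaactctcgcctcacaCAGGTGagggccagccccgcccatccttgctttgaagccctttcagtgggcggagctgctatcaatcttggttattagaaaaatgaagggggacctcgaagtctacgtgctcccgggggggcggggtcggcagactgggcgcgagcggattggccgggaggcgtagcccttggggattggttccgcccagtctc
The Unc13b window held 2 E-boxes (CACGTG and CAGGTG) and that of Unc13a held 0. Of the members, 35 had a window in the RefSeq table, 48 windows in all, and 70.8% of these held an E-box, against 66.2% of 32851 windows of all genes. Both forms of E-box often linked to proneural factors were also counted, on both strands. CAGATG (or CATCTG) was less frequent in the members' windows, at 10.4% against 14.4% of all. CAGCTG was more frequent in them, at 22.9% (11 of 48). Among all windows it was in 4271 of 32851, a share below the 14.4% of CAGATG. Neither difference was tested. A match is a run of letters, not a binding site.

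Of the 10 active zone genes, Unc13b alone passed the unadjusted criterion, and 5 had higher and 5 lower fitted levels. Bsn (bassoon), a giant organiser of the active zone, was at 331, 187 and 193 CPM with GFP and 556, 157 and 394 CPM with NeuroD1. Pclo (piccolo), its relative, was at 132, 96.6 and 105 CPM with GFP and 148, 81.4 and 153 CPM with NeuroD1. In both, NeuroD1 replicates 1 and 3 were the 2 highest libraries and replicate 2 the lowest. Erc2 (CAST), which ties RIM proteins to the scaffold, showed the same order, at 53.7, 35.3 and 49.3 CPM with GFP and 119, 23.5 and 117 CPM with NeuroD1. It was 1.88-fold higher with all libraries (edgeR adjusted p = 0.308) and 2.57-fold without NeuroD1 replicate 2 (adjusted p = 0.153). With any 1 library left out, its log2 fold change lay between 0.61 and 1.363. Rimbp2, which links RIM proteins to calcium channels, was at 58.0, 16.3 and 17.7 CPM with GFP and 116, 26.6 and 64.5 CPM with NeuroD1, 2.25-fold higher (edgeR adjusted p = 0.272). GFP replicate 1 was far above the other GFP libraries, and the fold change of Rimbp2 was 4.03 without it (adjusted p = 0.102) and 1.49 without NeuroD1 replicate 1 (adjusted p = 0.678).

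The products of the RIM genes Rims1 and Rims2 recruit calcium channels and Rab3 vesicles. Rims1 had a fold change of 0.989 and Rims2 was 1.27-fold lower, with overlapping groups. Rims3 was at 24.3 CPM in GFP replicate 1 and 26.6 CPM in NeuroD1 replicate 1, and at 4.41 to 9.25 CPM in the other 4 libraries, so the high value of each group was in its replicate 1. The log2 fold change of Rims3 was 0.36 with all libraries, 1.64 without GFP replicate 1 and -0.42 without NeuroD1 replicate 1. Ppfia3, a liprin-α scaffold, was at 275, 183 and 173 CPM with GFP and 147, 57.8 and 207 CPM with NeuroD1, 1.53-fold lower (edgeR adjusted p = 0.393).

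Among the calcium sensors, Syt1, the fast sensor of cortical synapses, was at 799, 414 and 683 CPM with GFP and 1019, 347 and 974 CPM with NeuroD1. NeuroD1 replicate 2 was the lowest library and the other two the highest, and the fold change was 1.23 (edgeR adjusted p = 0.687). Syt7, a high-affinity sensor of asynchronous release and vesicle replenishment, differed from it. It was at 258, 426 and 332 CPM with GFP and 205, 95.2 and 252 CPM with NeuroD1, so that all NeuroD1 libraries lay below all GFP libraries. Syt7 (chromosome 19, 10389090 to 10453180, plus strand, GRCm38) differed by -0.88 on the log2 scale (SE 0.37), 1.84-fold lower, with an unadjusted edgeR p of 0.0446 and an adjusted p of 0.199. The unadjusted p was 0.142 without GFP replicate 2, 0.0827 without GFP replicate 3, 0.0697 without NeuroD1 replicate 1 and 0.0689 without NeuroD1 replicate 2.

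Syt2, the fast sensor of parvalbumin interneurons and hindbrain synapses, was scarce, at 10.2, 3.47 and 2.72 CPM with GFP and 12.8, 1.55 and 2.96 CPM with NeuroD1. Both libraries numbered 1 were high, and the groups overlapped. The log2 fold change of Syt2 was 0.08 with all libraries, 0.90 without GFP replicate 1 and -1.27 without NeuroD1 replicate 1. Syt4, Syt5, Doc2a and Doc2b had overlapping groups, with the lowest fold change in Syt5 (0.928). Doc2a shares 1103 annotated exon bases with Ino80e on the opposite strand, a gene that averaged 26.6 ± 1.79 CPM in the GFP and 25.7 ± 6.52 CPM in the NeuroD1 group (SD, n = 3), so its own level is uncertain.

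Rab3 proteins mark vesicles that are ready to dock. Rab3a was at 350, 265 and 383 CPM with GFP and 274, 137 and 404 CPM with NeuroD1. Rab3c was at 156, 75.9 and 137 CPM with GFP and 229, 78.9 and 257 CPM with NeuroD1. Rph3a, rabphilin, an effector of Rab3, was at 352, 400 and 223 CPM with GFP and 210, 141 and 272 CPM with NeuroD1. It was 1.56-fold lower, with overlapping groups (edgeR adjusted p = 0.254).

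Of the 4 endocytosis genes 0 passed the unadjusted criterion. Synj1 (synaptojanin), a lipid phosphatase that uncoats retrieved vesicles, was at 168, 106 and 143 CPM with GFP and 326, 127 and 233 CPM with NeuroD1, 1.65-fold higher (edgeR adjusted p = 0.249). Amph (amphiphysin), a membrane-bending adaptor, was at 113, 69.2 and 87.7 CPM against 191, 42.3 and 184 CPM. Sh3gl2 (endophilin A1), which recruits synaptojanin, had a fold change of 1.26. Dnm1, dynamin 1, the GTPase that pinches vesicles off, was at 870, 580 and 750 CPM with GFP and 798, 383 and 890 CPM with NeuroD1. Without NeuroD1 replicate 2, Synj1 was 2.02-fold, Amph 2.09-fold and Sh3gl2 1.68-fold higher (edgeR adjusted p-values of 0.153, 0.153 and 0.173), and Dnm1 1.155-fold (0.629). Other omissions gave smaller values for the first 3 genes. With any 1 library left out, the log2 fold change lay between 0.38 and 1.015 for Synj1. It lay between 0.34 and 1.065 for Amph and between 0.059 and 0.75 for Sh3gl2. Of the neurexins, adhesion molecules that span the cleft, Nrxn2 had a fold change of 0.997 and Nrxn3 of 1.40, both with overlapping groups.

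Ratios of related genes within a library do not depend on the library's scaling, and were taken for 19 pairs that were chosen with the values known. In 15 pairs the groups overlapped and in 4 they did not. The share of other gene pairs whose groups lie apart was not computed, so the count of 4 has no background beside it. An exact two-sided permutation test cannot go below p = 0.1 with 3 against 3 libraries, and each of the 4 pairs had that p (0.475 after adjustment over the 19). Unc13b per Unc13a (per kilobase) was 0.179, 0.295 and 0.295 in the GFP replicates and 0.128, 0.174 and 0.150 in the NeuroD1 replicates, 1.67-fold lower. The highest NeuroD1 and lowest GFP ratio were close. Syt7 per Syt1 was 0.235, 0.749 and 0.354 with GFP and 0.146, 0.200 and 0.188 with NeuroD1, 2.25-fold lower. Rab3c per Rab3a was 0.0821, 0.0528 and 0.0659 with GFP and 0.154, 0.106 and 0.117 with NeuroD1, 1.88-fold higher. Sv2c per Sv2a was 0.00446, 0.00629 and 0.00184 with GFP and 0.0198, 0.00806 and 0.00814 with NeuroD1, 2.93-fold higher. In these 4 ratios NeuroD1 replicate 2 sat with its group, unlike in the levels of Sv2c and Rab3c.

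**Figure D5:**
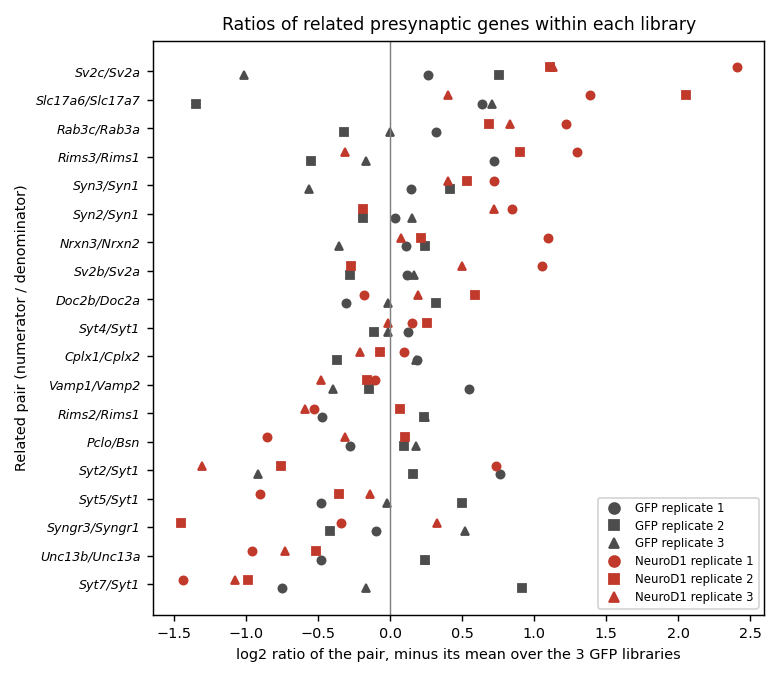
Each row is a pair of related genes and each point a library, GFP in grey and NeuroD1 in red with a shape for each replicate number, as the log2 ratio of the pair minus its mean over the 3 GFP libraries. Red and grey points are apart for Sv2c/Sv2a and Rab3c/Rab3a (higher with NeuroD1) and for Unc13b/Unc13a and Syt7/Syt1 (lower), and mix in the other 15 pairs.

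The members' fold changes also varied with base composition, as did those of all genes. The 26 members with higher fitted levels had transcripts of 48.6% G and C at the median and the 20 with lower levels 55.03%. Across the 46 members Spearman's rho between fold change and G and C content was -0.38, and across 14769 tested genes it was -0.30, a description over genes that share the same 6 libraries. For transcript length, rho was 0.22 and 0.29. With offsets for both, the 3 members at an unadjusted p under 0.05 kept that criterion and their directions, and Vamp1, the vesicle SNARE of fast-firing neurons, was added to the lower ones.

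A wider list of 54 other presynaptic genes, of which 53 were in the table and tested, was set beside the members. At an unadjusted p under 0.05, 4 were higher and 2 lower (11.3%, against 24.0% of all tested genes), and the median log2 fold change was 0.18. The smallest p among the higher ones belonged to Rab3d, a vesicle GTPase also found in secretory cells outside the brain, at 21.1, 18.7 and 15.5 CPM with GFP and 29.7, 41.0 and 23.5 CPM with NeuroD1 (1.70-fold; edgeR adjusted p = 0.153). Sypl, a widely expressed relative of synaptophysin, was 1.71-fold higher and the synaptotagmin gene Syt17 2.62-fold higher (edgeR adjusted p-values of 0.161 and 0.168). For Rab3d and Sypl, NeuroD1 replicate 2 was the highest library, unlike in any of the 46 members. Among the lower ones, Sncg (γ-synuclein) was 2.39-fold, Tprgl (Mover, a vesicle protein) 1.38-fold and the presynaptic calcium channel gene Cacna1a 1.33-fold lower (edgeR adjusted p-values of 0.169, 0.206 and 0.232). Cacna1a did not pass the unadjusted criterion. Without NeuroD1 replicate 2 the list had 13 higher and 2 lower genes by the same criterion, where 12.2% of all genes tested in that fit were higher and 11.9% lower.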

How the data were processed

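Bulk RNA sequencing covered 6 mouse cortex libraries, 3 per group. What the authors deposited is a table of raw counts by gene symbol, and the file headers name featureCounts and an mm10 annotation as its origin. The submitters' processing notes list the aligner HISAT2 (2.0.1), DESeq2 (1.16.1) and the GRCm38 build but not what each was used for. Strand setting, annotation release and handling of multiply mapped reads were not found in the labels or headers. Columns were matched by the sample descriptions and 0 were left unused. The 46 genes and the other lists were chosen with earlier results of these data known. All 46 members could be named, and from the wider presynaptic list the 3 genes with the smallest p in each direction.

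Genes were kept by filterByExpr (minimum count 10, minimum total 15) and tested by edgeR's quasi-likelihood method (version 4.0.16, R 4.3.3). The model held the treatment alone, libraries were scaled by TMM, and p-values were adjusted by Benjamini-Hochberg over all 14852 genes with a threshold of 0.05. Standard errors came from the F statistic. The test was checked on simulated data. Levels per kilobase used the longest GENCODE M21 transcript of each symbol, found for 99.4% of tested genes. Upstream sequences are RefSeq's, on GRCm38.p6. Alternatives were DESeq2 1.42.0, limma-voom (limma 3.58.1), other scalings and filters (none, or 1 CPM in 4 libraries), a replicate block, spline offsets (4 degrees of freedom) for length and base composition, and leaving out each library. DESeq2 with each library left out, the count of members whose groups do not overlap without NeuroD1 replicate 2, and leaving out each pan-neuronal gene from the summed ratio, were chosen after seeing the data.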

Additional observations from a re-analysis of the deposited data

How the results depend on the processing

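The members higher and lower at an unadjusted p under 0.05 numbered 1 and 2 by edgeR, and 0 passed after adjustment. Size factors, upper quartile scaling, no filter, a stricter filter and limma-voom gave 1 and 2 as well. With DESeq2 2 were higher at an unadjusted p under 0.05, and 2 passed adjustment; with 1 library left out the number passing DESeq2's adjustment was 6 (13.04%, against 13.8% of all genes, without GFP replicate 1), 12 (26.1% against 6.79%, without NeuroD1 replicate 2), 4 (8.70% against 15.3%, without NeuroD1 replicate 3) and 0 in the other three fits. With 1 library left out edgeR gave 0 to 16 higher and 1 to 5 lower members, the 16 without NeuroD1 replicate 2, and a median log2 fold change of -0.23 to 0.51; 0 passed adjustment. Members whose groups did not overlap numbered 3, 2 on CPM without TMM scaling (Unc13a lost), and 24 without NeuroD1 replicate 2. Of all tested genes 29.6% did not overlap with all libraries. Without NeuroD1 replicate 2 the share was 45.7% of all tested genes, beside 52.2% of the members. Why the counts move with the left-out library was not tested. The replicate block gave 5 higher and 3 lower (10.9% and 6.52%, against 17.9% and 15.9% of all genes), and with length and GC offsets 4 and 4 (8.70% each, against 15.3% and 14.1%), of which 1 (Unc13b) passed adjustment; over all genes the block alone called 479. Same-numbered libraries had deviations from their group means that correlated at 0.54, 0.37 and 0.04 for replicates 1, 2 and 3. Every library except GFP replicate 3 correlated best with its own number. GFP replicate 3 correlated at 0.13 with NeuroD1 replicate 2. The labels give a replicate number and state no pairing, so the main model left the block out. Whether same-numbered libraries share a batch was not tested, and the main p-values would ignore it. The members' median was -0.03 under both limma-voom and the block. Sv2c, Syt7 and Unc13b kept their sign in 21 of 21 alternative fits. The unadjusted criterion was lost by Syt7 in 7 of them, by Sv2c in 3 and by Unc13b in 0. Depth limits Sv2c, Slc17a6 and Syt2, which had at most 174 counts in any library.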
